A study of Homo sapiens with 24 samples.

Results

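The genes described here are 32 enzymes that make, recycle or phosphorylate nucleotides or supply the one-carbon units for them, taken by symbol from the 22446 gene symbols of the deposited table. They comprise 6 enzymes of de novo purine synthesis up to inosine monophosphate (IMP), 4 that turn IMP into AMP and GMP, 5 of pyrimidine synthesis, 2 of thymidylate synthesis, 3 of the folate cycle, 2 that make phosphoribosyl pyrophosphate (PRPP), 6 of salvage and 4 nucleotide kinases. They were picked by name and function with earlier results of these data known, and no measured value enters the rule. All 32 were present, CTPS and ADSS under those older symbols. The cells were A2780, an established human epithelial ovarian cancer line, kept in 1% oxygen (hypoxia) or maintained outside the low-oxygen chamber (normoxia) for 6 hr, 48 hr or 6 days. Each of the 6 groups had 2 libraries of ribosome-depleted total RNA. The normoxic pairs were libraries 1 and 2 (6 hr), 5 and 6 (48 hr) and 9 and 10 (6 days), and the hypoxic pairs were 3 and 4, 7 and 8, and 11 and 12 in the same order. All groups shared the line, medium and serum, with no genetic change or drug named, and no label states that paired libraries are separate cultures. The p-values therefore reflect the spread between these libraries, which may be technical.

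Cells build purines on PRPP, adding glutamine nitrogen, glycine, aspartate and formyl groups from folate step by step until IMP is formed, from which AMP and GMP branch off. Pyrimidines are instead built as a ring first and joined to PRPP afterwards, with 1 step, that of DHODH, sitting in the inner mitochondrial membrane and passing its electrons to the respiratory chain. Serine and glycine feed the folate cycle, which runs in parallel in the cytosol and in mitochondria, and salvage enzymes recover bases and nucleosides with less energy than synthesis takes. Proliferating tumour cells draw on these pathways for DNA and RNA, and several of the enzymes are drug targets, among them TYMS, DHODH, IMPDH and GART.

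The level of every gene is its RPKM (reads per kilobase of transcript per 1e6 mapped reads). Read totals implied by the values ran from 25.15 to 51.84 M per library (M being 1e6). All 32 genes were measured above 1 RPKM in every library, between 2.87 RPKM (DHODH, library 9) and 126 RPKM (NME1, library 6), so none was lost to the filter on low values. The 10 hypoxia-response genes used to check the oxygen labels included SLC2A1, the main glucose transporter, PDK1, which inhibits pyruvate dehydrogenase, and CA9, a carbonic anhydrase. All 10 were called higher in hypoxia at 48 hr and at 6 days, and 9 of 10 at 6 hr. The exception, CA9, was at 0.0248 and 0 RPKM in normoxia and 0.151 and 0.217 in hypoxia at 6 hr, above normoxia without passing (adjusted p = 0.171, limma). Of the markers of the line, EPCAM (33.2 to 42.2 RPKM), KRT18 (23.7 to 38.2 RPKM) and VIM (712 to 989 RPKM) were present. KRT7, KRT19, CDH1, PAX8, WT1 and MUC16 were below 0.25 RPKM in every library. Library 4, hypoxia at 6 hr, stood apart with 20.2 RPKM of HBB, 9.05 RPKM of HBA2 and 3.06 RPKM of COL1A2, against at most 0.549, 1.83 and 0.125 RPKM in the other 11. Without it, as with it, none of the 32 genes passed the test at 6 hr.

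By mean level over the 12 libraries NME1, PAICS and IMPDH2 were the most abundant of the 32, and ADA, DHODH and UMPS the least. A fold change below is a difference of log2(RPKM + 0.5) between group means with its standard error (SE), and a gene was called where the adjusted p of limma, a linear model fitted to all 11933 genes tested, was under 0.05. The pseudocount of 0.5 slightly understates the change of low genes. In bulk RNA, fewer cells of a kind and less RNA per cell cannot be told apart.

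After 6 days in hypoxia most of these genes were lower, whereas few or none passed the test at the earlier times. At 6 days 17 of the 32 genes (53.1%) were lower in hypoxia and 5 (15.6%) were higher. Over all genes tested, 18.3% were lower and 23.9% higher. The median log2 fold change was -0.32 for the 32 genes and 0.04 for all genes. At 48 hr 2 were lower and 1 higher, where 2.89% and 9.24% of all genes were called, and the medians were -0.13 and 0.01. At 6 hr none was called in either direction by limma, where 0.201% of all genes were called lower and 3.39% higher. At an unadjusted p under 0.05, 3 were lower (9.38%) and 6 higher (18.8%), against 4.04% and 12.8% of all genes. The lower calls at 6 days covered every class except PRPP synthesis, and the higher ones were PPAT and PAICS of the purine route, HPRT1 of salvage and the kinases CMPK1 and GUK1.

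**Figure D1:**
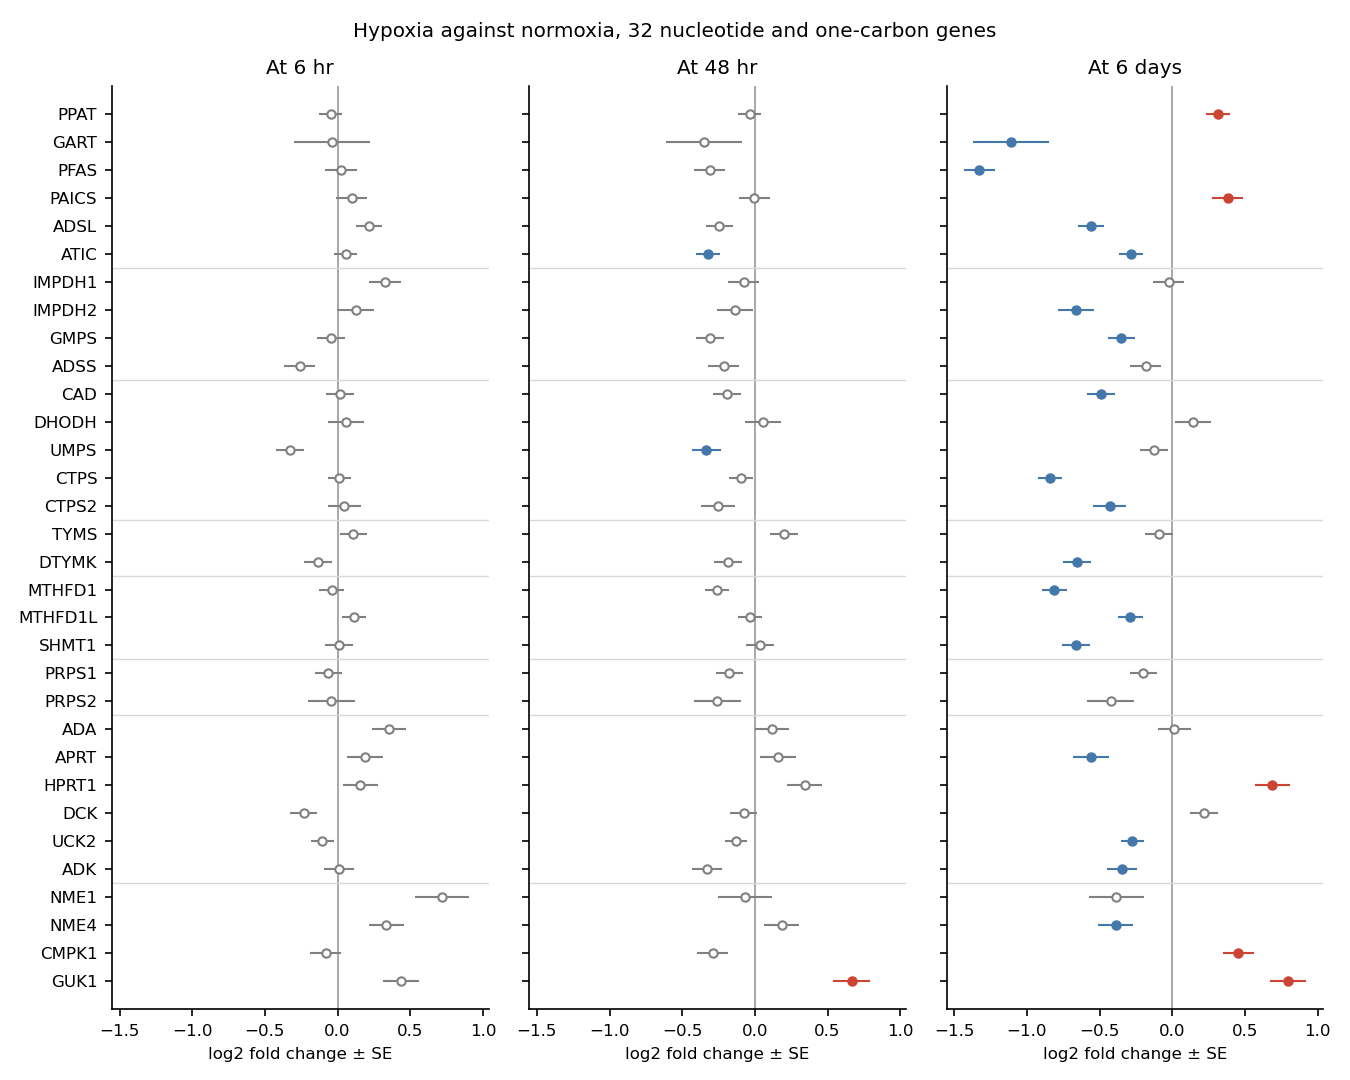
Log2 fold change of hypoxia against normoxia (x axis, ± SE) for each of the 32 genes (y axis, ordered by class with grey lines between classes) at 6 hr, 48 hr and 6 days, 2 libraries per group. Filled points passed the test (red higher, blue lower) and open points did not, with 0, 3 and 22 filled points at the 3 times.

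De novo purine synthesis split in its response at 6 days, with 4 of 6 enzymes lower and the other two higher. PFAS, which uses glutamine to aminate the growing ring, had the largest decrease of the 32. It stood at 20.6 and 17.5 RPKM in normoxia and 20.5 and 18.1 in hypoxia at 6 hr, 22.6 and 21.9 against 17.3 and 18.4 at 48 hr, and 12.7 and 14.0 against 5.34 and 4.70 at 6 days. Both hypoxic libraries of 6 days were thus lower than the other 10 libraries, and normoxia at 6 days was itself lower than at the earlier times. The 6-day difference was -1.33 ± 0.11 (log2, SE, adjusted p = 4.76e-06, limma), a 2.51-fold decrease.

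GART, an enzyme with several active sites that carries early steps and a formyl transfer, followed another course. Its normoxic libraries gave 17.6 and 37.6 RPKM at 6 hr, 25.2 and 27.9 at 48 hr and 43.9 and 37.7 at 6 days, while the hypoxic ones gave 24.1 and 26.0, 19.4 and 22.0, and 16.3 and 21.1. The normoxic libraries of 6 hr lay on both sides of the hypoxic ones, and the 6-day groups did not overlap. The 6-day difference was -1.11 ± 0.26 (adjusted p = 0.00592, limma), or 2.16-fold, with the widest error of the 32 genes.

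ADSL, which releases fumarate both on the way to IMP and on the way to AMP, fell from 27.0 and 26.9 RPKM in normoxia to 18.6 and 17.7 in hypoxia at 6 days, a change of -0.56 ± 0.09 (adjusted p = 0.000717, limma). ATIC, which closes the ring to give IMP, was at 30.5 and 30.9 RPKM in normoxia and 24.5 and 25.9 in hypoxia, a change of -0.28 ± 0.08 (adjusted p = 0.0177, limma). Without any one of libraries 9 to 12, ATIC missed the threshold, with an adjusted p of 0.0508 to 0.126. A fit that leaves a group with 1 library assumes that it varies like the other groups.

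PPAT, the enzyme of the first committed step, and PAICS, which carries a pair of later steps, moved the other way. PPAT was at 10.3 and 9.50 RPKM in normoxia and 12.3 and 12.5 in hypoxia at 6 days, and PAICS at 56.3 and 57.1 against 74.7 and 73.2. In both genes all 4 libraries of 6 days lay below the 8 libraries of the earlier times, where PPAT was at 16.7 to 18.7 RPKM and PAICS at 78.2 to 101 RPKM, so that hypoxia went with a smaller decrease over time and not with a level above that of the start. The differences at 6 days were 0.31 ± 0.08 for PPAT (adjusted p = 0.00992, limma) and 0.38 ± 0.11 for PAICS (adjusted p = 0.016, limma). Both calls depended on single libraries. PPAT had an adjusted p of 0.0868 without library 10 and 0.0616 without library 12, and PAICS one of 0.0646 to 0.0845 without any one of libraries 9 to 12.

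**Figure D2:**
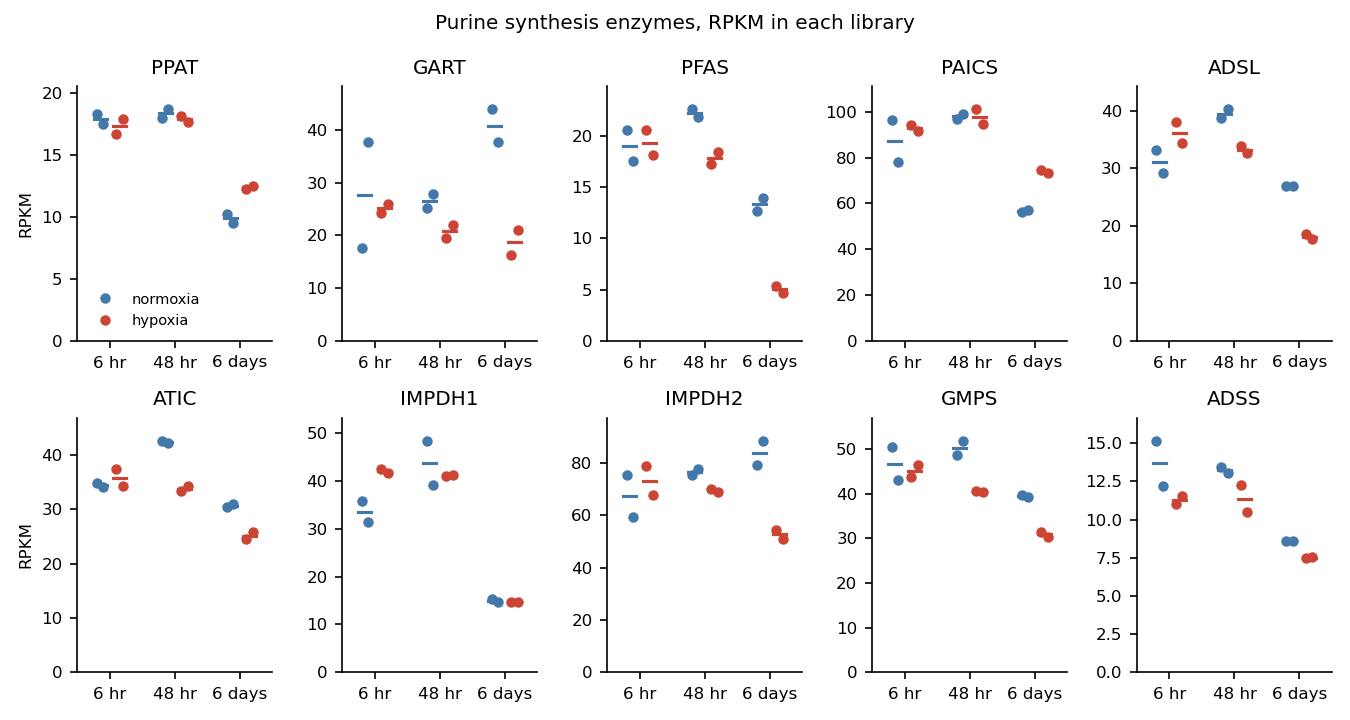
RPKM (y axis, from 0) of the 10 purine synthesis enzymes in each library at 6 hr, 48 hr and 6 days, blue for normoxia and red for hypoxia, with a bar at the mean of the 2 libraries. PFAS, ADSL, ATIC and GMPS have their lowest pair in hypoxia at 6 days, PPAT and PAICS are higher in hypoxia than in normoxia at 6 days, and IMPDH1 is at 14.7 to 15.3 RPKM in all 4 libraries of 6 days.

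PPAT and PAICS, the 2 purine synthesis genes called higher, lie head to head, with start sites 137 bases apart on opposite strands of chromosome 4 (RefSeq, GRCh38.p14). The 250 bases before the start of PPAT are shown because they hold the space between both starts and the only E-box found in the windows of either gene, CACGTG, the letters bound by MYC-type factors and some others, here in capitals. The same length before 3 other purine or folate genes is shown for comparison. ATIC and MTHFD1 have an E-box before the start and were lower at 6 days, and PFAS has none and had the largest decrease.
PPAT, chr4:56435616-56435865, minus strand, shared with PAICS on the plus strand: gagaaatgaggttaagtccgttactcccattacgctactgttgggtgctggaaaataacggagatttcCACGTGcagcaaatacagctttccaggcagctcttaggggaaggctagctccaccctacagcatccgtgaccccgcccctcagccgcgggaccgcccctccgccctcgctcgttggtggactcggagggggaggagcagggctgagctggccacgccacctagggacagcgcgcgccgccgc
ATIC, chr2:215311809-215312058, plus strand: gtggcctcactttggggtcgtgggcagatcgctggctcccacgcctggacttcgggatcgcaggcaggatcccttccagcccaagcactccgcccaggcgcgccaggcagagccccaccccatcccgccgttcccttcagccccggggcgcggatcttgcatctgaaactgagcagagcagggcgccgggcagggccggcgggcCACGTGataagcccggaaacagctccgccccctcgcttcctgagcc
MTHFD1, chr14:64388103-64388352, plus strand: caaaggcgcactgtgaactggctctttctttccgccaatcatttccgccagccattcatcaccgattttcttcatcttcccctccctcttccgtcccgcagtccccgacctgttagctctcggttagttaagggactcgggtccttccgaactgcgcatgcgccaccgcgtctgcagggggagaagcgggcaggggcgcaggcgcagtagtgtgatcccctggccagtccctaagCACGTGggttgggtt
PFAS, chr17:8249039-8249288, plus strand: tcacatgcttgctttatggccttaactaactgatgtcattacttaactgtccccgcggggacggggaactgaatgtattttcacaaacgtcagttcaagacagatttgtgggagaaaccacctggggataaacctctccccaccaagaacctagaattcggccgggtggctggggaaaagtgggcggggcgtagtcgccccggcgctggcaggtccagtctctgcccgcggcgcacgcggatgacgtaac
Windows of 300 bases, from 250 before a start to 50 after it, were at hand for 30 of the 32 genes, 43 windows in all (ADSL and IMPDH2 had none). CACGTG was in 10 of the 43 windows (23.3%) and in 7.26% of all 35116 windows of this length. These 10 windows hold 8 separate sites, since 3 overlapping windows of MTHFD1L share 1 site, PPAT and PAICS share another, and ATIC has 2. The 8 genes with an E-box in at least 1 window were PPAT and PAICS, higher at 6 days, ATIC, MTHFD1 and MTHFD1L, lower, and DHODH, DCK and NME1, which did not pass. ACGTG and GCGTG, the core letters of hypoxia response elements searched on both strands, were in 32.6% and 62.8% of the 43 windows and in 21.4% and 36.5% of all windows. CACGTG holds ACGTG on both strands, so the first 2 counts overlap. GGGCGG, the GC box, was in 72.1% against 45.0%, and CCAAT in 39.5% against 34.6%. The windows of these genes were also richer in G and C, with a median of 68.0% against 58.7%, which alone changes how often such letters occur. A match is a description of the letters and not of a bound factor.

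Of the enzymes that turn IMP into AMP and GMP, both of the guanine branch that were called were lower at 6 days. IMPDH2, an isoform of the rate-limiting enzyme of guanine nucleotide synthesis, was at 79.3 and 88.6 RPKM in normoxia and 54.5 and 51.0 in hypoxia, a change of -0.66 ± 0.13 (adjusted p = 0.00166, limma). IMPDH1, the other isoform, was at 15.3 and 14.7 RPKM in normoxia and 14.8 and 14.7 in hypoxia, so the groups overlapped and the interval of the difference ran from -0.26 to 0.21. GMPS, which aminates XMP to GMP, was at 39.6 and 39.3 against 31.5 and 30.2 RPKM, a change of -0.35 ± 0.10 (adjusted p = 0.0126, limma), with an adjusted p of 0.0592 to 0.0812 without library 9, 10 or 12. ADSS, the first enzyme of the adenine branch, did not pass at 6 days (-0.18 ± 0.11, adjusted p = 0.194, limma).

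In pyrimidine synthesis the enzymes of the first and last steps were lower at 6 days, and those of the steps between did not pass. CAD, the large protein of the first steps, was at 9.17 and 10.4 RPKM in normoxia and 6.34 and 7.30 in hypoxia at 6 days, a change of -0.49 ± 0.10 (adjusted p = 0.00198, limma). CTPS, which makes CTP from UTP and glutamine, was at 14.1 and 15.3 RPKM in normoxia and 15.4 and 14.3 in hypoxia at 6 hr, 14.8 and 14.5 against 13.6 and 13.7 at 48 hr, and 9.17 and 8.84 against 4.78 and 4.82 at 6 days. Its libraries were thus close together at both early times and split into separate levels at 6 days, by -0.84 ± 0.08 (adjusted p = 1.89e-05, limma), or 1.79-fold. The isoform CTPS2 was at 9.99 and 10.3 against 7.85 and 6.95 RPKM, a change of -0.43 ± 0.11 (adjusted p = 0.011, limma), lost at an adjusted p of 0.0616 without library 10 and 0.0867 without library 12. DHODH, the mitochondrial step, was at 2.87 and 3.53 RPKM in normoxia and 3.84 and 3.31 in hypoxia, with an interval of -0.13 to 0.42. UMPS, which completes UMP, was at 3.66 and 3.92 against 3.50 and 3.38 RPKM at 6 days (-0.12 ± 0.10, adjusted p = 0.332, limma).

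Thymidylate kinase and the folate enzymes were lower at 6 days, and thymidylate synthase was not. TYMS, which methylates dUMP with folate, was at 37.8 and 41.3 RPKM in normoxia and 35.8 and 38.3 in hypoxia, overlapping groups with an interval of -0.30 to 0.12. An antisense neighbour, TYMSOS, starts near it, and strand use in the counting is not given in the sources used here. DTYMK, the kinase of the next step, was at 26.1 and 27.3 RPKM in normoxia and 16.8 and 16.6 in hypoxia, a change of -0.66 ± 0.10 (adjusted p = 0.000363, limma).

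All 3 folate enzymes were called lower. MTHFD1, the cytosolic enzyme that supplies formyl-folate for the purine ring, was at 22.7 and 25.2 RPKM in normoxia and 24.0 and 22.5 in hypoxia at 6 hr, 23.2 and 24.4 against 19.9 and 19.7 at 48 hr, and 17.5 and 18.2 against 9.68 and 10.2 at 6 days. The groups overlapped at 6 hr only, and the hypoxic pair of 6 days was the lowest of the 6 pairs. The 6-day change was -0.81 ± 0.09 (adjusted p = 3.49e-05, limma), or 1.76-fold. SHMT1, which moves a carbon from serine to folate in the cytosol, was at 7.99 to 10.3 RPKM in the 10 other libraries and at 5.09 and 5.82 in hypoxia at 6 days, a change of -0.66 ± 0.10 against normoxia of the same time (adjusted p = 0.000329, limma). MTHFD1L, which releases formate from mitochondria, was at 14.3 and 14.0 against 11.05 and 11.95 RPKM, a change of -0.29 ± 0.08 (adjusted p = 0.0178, limma) that was lost without library 9, 10 or 11, at an adjusted p of 0.0673 to 0.133.

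**Figure D3:**
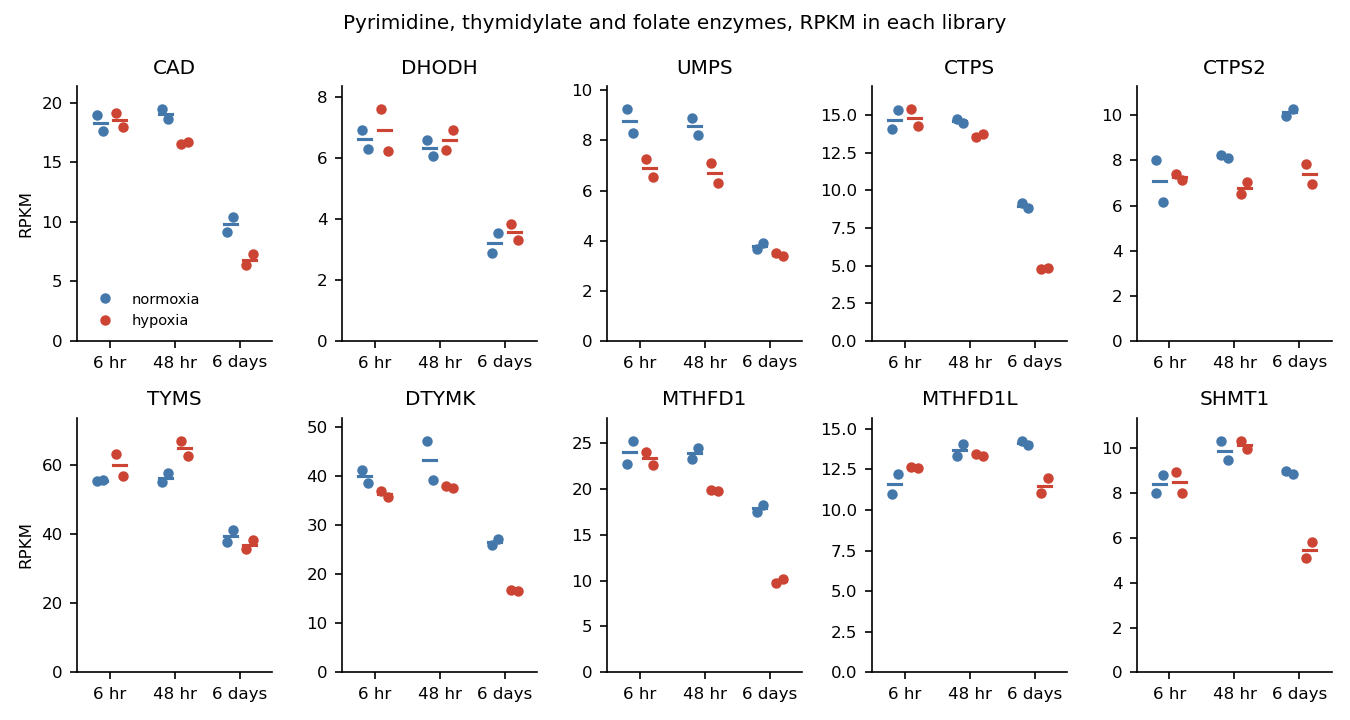
RPKM (y axis, from 0) of the pyrimidine, thymidylate and folate enzymes in each library at 6 hr, 48 hr and 6 days, blue for normoxia and red for hypoxia, with a bar at the mean of the 2 libraries. CTPS, DTYMK, MTHFD1 and SHMT1 separate by oxygen at 6 days, while DHODH and TYMS overlap there.

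The enzymes that make PRPP, the shared sugar donor, did not pass in hypoxia against normoxia at any time. PRPS1 was at 22.0 and 22.6 RPKM in normoxia and 20.2 and 18.5 in hypoxia at 6 days (-0.20 ± 0.09, adjusted p = 0.102, limma). PRPS2 was at 17.5 and 20.1 against 14.4 and 13.4 RPKM (-0.42 ± 0.16, adjusted p = 0.0543, limma). Neither gene's groups overlapped at 6 days.

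Salvage went both ways at 6 days, with 3 of 6 enzymes lower and 1 higher. HPRT1, which recovers hypoxanthine and guanine, was at 21.4 and 26.4 RPKM in normoxia and 24.0 and 29.4 in hypoxia at 6 hr, 24.5 and 23.4 against 30.8 and 30.1 at 48 hr, and 19.1 and 17.1 against 28.9 and 29.9 at 6 days. Its hypoxic libraries stayed between 28.9 and 30.8 RPKM at the later times while the normoxic ones were lowest at 6 days, so the groups overlapped at 6 hr only. The difference was 0.69 ± 0.12 at 6 days (adjusted p = 0.00106, limma), or 1.61-fold, and 0.34 ± 0.12 at 48 hr (adjusted p = 0.0931, limma). APRT, which recovers adenine, was at 42.7 and 41.8 RPKM in hypoxia at 48 hr against 38.9 and 36.6 in normoxia, and at 24.7 and 22.3 against 33.0 and 36.8 at 6 days. The hypoxic pair was thus the higher at 48 hr, without passing the test (adjusted p = 0.445, limma), and the lower at 6 days, by -0.56 ± 0.12 (adjusted p = 0.00406, limma).

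UCK2, which phosphorylates uridine and cytidine, was at 17.1 and 17.4 RPKM in normoxia and 13.9 and 14.5 in hypoxia at 6 days, a change of -0.27 ± 0.08 (adjusted p = 0.0151, limma). ADK, which phosphorylates adenosine, was at 9.37 and 9.33 against 7.12 and 7.39 RPKM, a change of -0.35 ± 0.10 (adjusted p = 0.0204, limma). Both calls were lost without any one of libraries 9 to 12, at an adjusted p of 0.0517 to 0.105 for UCK2 and 0.0623 to 0.101 for ADK. DCK, the kinase of deoxycytidine and other deoxynucleosides, was at 12.3 and 13.7 against 15.2 and 15.2 RPKM and did not pass (adjusted p = 0.0827, limma). ADA, which deaminates adenosine, was at 6.57 and 7.69 against 7.85 and 6.57 RPKM, with overlapping groups and an interval of -0.24 to 0.27.

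Among the kinases, GUK1 was called higher in hypoxia at both 48 hr and 6 days. It encodes the enzyme that turns GMP into GDP, and was at 35.4 and 30.3 RPKM in normoxia and 48.9 and 40.4 in hypoxia at 6 hr, 42.6 and 38.1 against 65.0 and 63.4 at 48 hr, and 37.6 and 44.5 against 72.8 and 70.0 at 6 days. Its groups did not overlap at any of the 3 times. The differences were 0.43 ± 0.13 at 6 hr (adjusted p = 0.0944, limma), 0.66 ± 0.13 at 48 hr (adjusted p = 0.00522) and 0.80 ± 0.13 at 6 days (adjusted p = 0.000542). The 48 hr call was lost without library 6 (adjusted p = 0.0588) or 7 (adjusted p = 0.0518).

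CMPK1, the kinase of UMP and CMP, was at 20.8 and 21.0 RPKM in normoxia and 18.3 and 15.9 in hypoxia at 48 hr, and at 15.9 and 13.4 against 20.7 and 19.6 at 6 days. Hypoxia was thus the lower group at 48 hr (adjusted p = 0.102, not called) and the higher at 6 days, by 0.45 ± 0.11 (adjusted p = 0.00564, limma), a call lost without library 10 (adjusted p = 0.066). NME4, a nucleoside diphosphate kinase of mitochondria, was at 24.9 and 26.5 against 21.2 and 17.9 RPKM at 6 days, a change of -0.39 ± 0.12 (adjusted p = 0.0228, limma), lost without library 9, 10 or 12 (adjusted p of 0.06 to 0.178). NME1, its cytosolic relative, was at 77.9 and 58.0 RPKM in normoxia and 124 and 99.3 in hypoxia at 6 hr, the largest difference of the 32 at that time (0.72 ± 0.19) without passing (adjusted p = 0.0651, limma). At 6 days NME1 was at 62.4 and 53.5 against 53.0 and 36.7 RPKM (adjusted p = 0.12, limma). NME1 shares sequence with NME2 and the read-through NME1-NME2, among which the submitters' counting could have split reads.

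**Figure D4:**
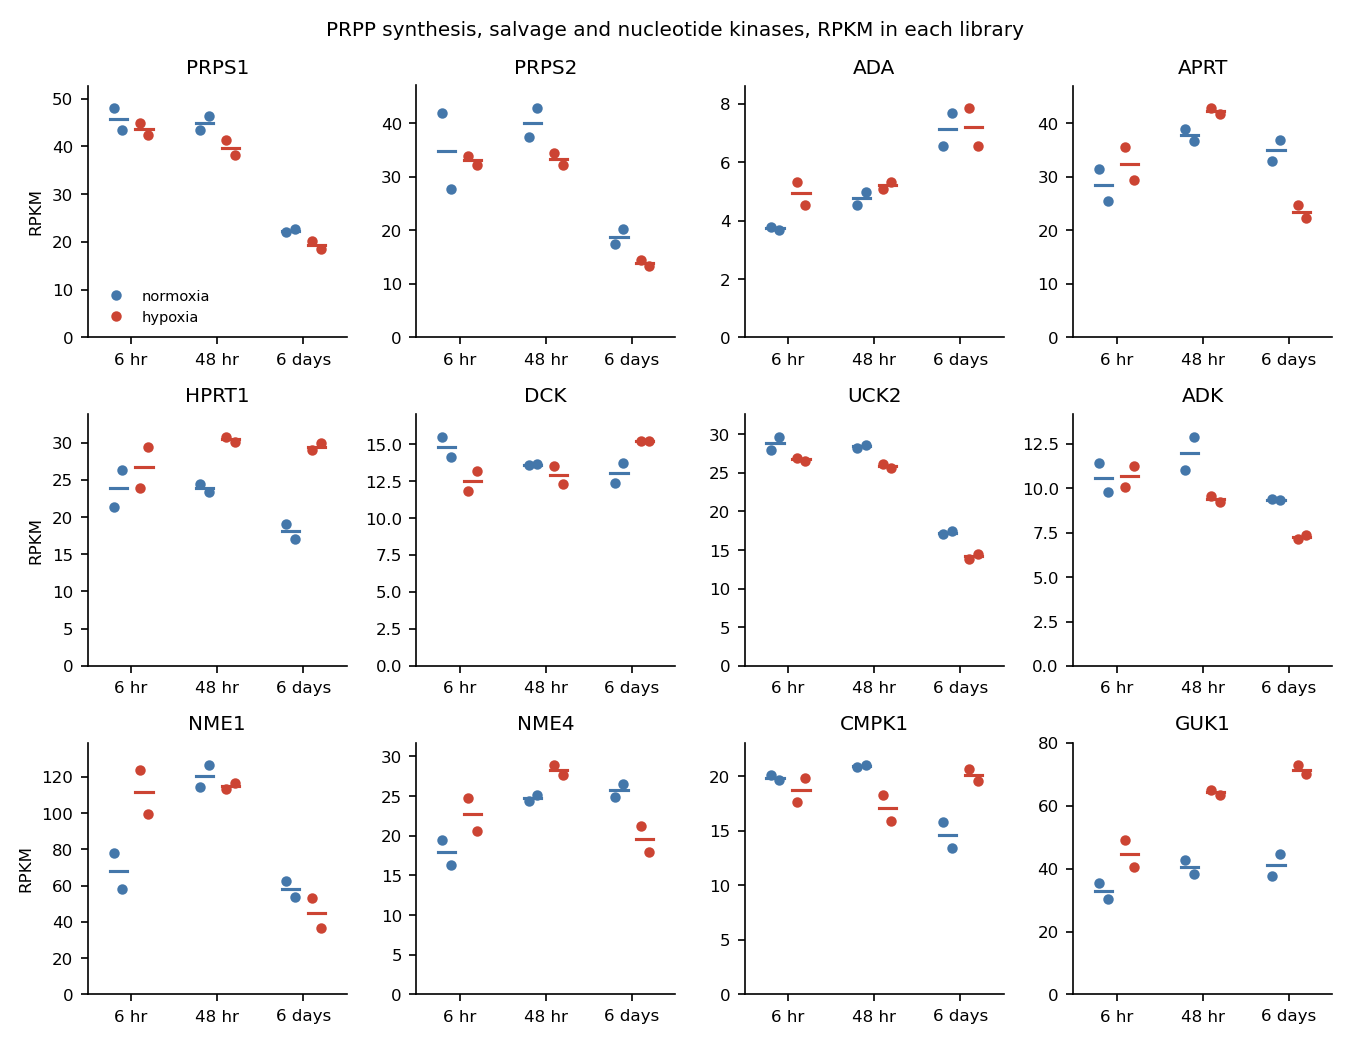
RPKM (y axis, from 0) of the PRPP, salvage and kinase genes in each library at 6 hr, 48 hr and 6 days, blue for normoxia and red for hypoxia, with a bar at the mean of the 2 libraries. GUK1 and HPRT1 separate upward in hypoxia with time, and APRT and CMPK1 change the order of their groups between 48 hr and 6 days.

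At 48 hr the 3 called genes were GUK1, higher, and ATIC and UMPS, lower. ATIC was at 42.6 and 42.1 RPKM in normoxia and 33.4 and 34.3 in hypoxia, a change of -0.32 ± 0.08 (adjusted p = 0.0274, limma). UMPS was at 8.90 and 8.21 against 7.08 and 6.31 RPKM, a change of -0.33 ± 0.10 (adjusted p = 0.0472, limma). Neither decrease was called without any one of libraries 5 to 8, with adjusted p of 0.119 to 0.184 for ATIC and 0.096 to 0.289 for UMPS. At an unadjusted p under 0.05, 9 of the 32 were lower (28.1%) and 2 higher (6.25%), against 9.83% and 16.9% of all genes. The 24 of 32 fold changes below 0 compared with 5756 of 11933 over all genes.

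Whether the response differed between times was tested in the same model. Between 6 hr and 48 hr no gene of the 32 differed by limma, where 0.511% of all genes were called with a higher and 0.0168% with a lower response. At an unadjusted p under 0.05, 6 of the 32 had a lower response (18.8%) and none a higher one, against 4.84% and 5.94% of all genes. Between 48 hr and 6 days the response of 5 fell, where 5.31% of all genes did so, and that of 1 rose, where 5.38% did. The 5 were PFAS (-1.02 ± 0.15, adjusted p = 0.00393, limma), CTPS (-0.75 ± 0.11, adjusted p = 0.0043), APRT (-0.72 ± 0.17, adjusted p = 0.0268), SHMT1 (-0.70 ± 0.14, adjusted p = 0.0114) and MTHFD1 (-0.55 ± 0.12, adjusted p = 0.0183). The gene that rose was CMPK1 (0.74 ± 0.15, adjusted p = 0.013, limma). Of these 6, PFAS and CTPS passed under every alternative tried, while the calls of APRT, SHMT1, MTHFD1 and CMPK1 each failed without at least 1 of libraries 5 to 12, at an adjusted p of at most 0.1. SHMT1 failed only without library 11 (adjusted p = 0.0509).

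With time as a term and 1 effect of oxygen for all 3 times, 2 genes were higher and 7 lower, where 15.3% and 7.13% of all genes were called. The higher ones were GUK1 (0.63 ± 0.09, adjusted p = 0.000224, limma) and HPRT1 (0.39 ± 0.09, adjusted p = 0.0101). The lower ones were UMPS (-0.26 ± 0.06, adjusted p = 0.0113), DTYMK, MTHFD1, ADSS, GMPS, UCK2 and PFAS, the last at -0.54 ± 0.17 (adjusted p = 0.0413). ADSS and UMPS, which did not pass at 6 days alone, passed here with a lower mean in hypoxia at each time. ADSS differed by -0.26, -0.22 and -0.18 and UMPS by -0.33, -0.33 and -0.12 at 6 hr, 48 hr and 6 days. PFAS differed by 0.02, -0.31 and -1.33 and MTHFD1 by -0.04, -0.26 and -0.81 in the same order. For PFAS and MTHFD1 the effect across times thus averages unlike values. GUK1, HPRT1 and UMPS kept their call under every alternative. The other 6 lost it without at least 1 library.

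The 6-day cultures also differed from the earlier ones in normoxia alone. Normoxia at 48 hr did not differ from normoxia at 6 hr for any of the 32 by limma, where 0.00838% of all genes were higher and 0.0838% lower. At an unadjusted p under 0.05, 10 were higher (31.2%) and none lower, against 14.3% and 2.11% of all genes. The 2 normoxic libraries of 6 hr were the least alike of the 6 pairs. Their median absolute log2 difference was 0.16 over the 32 genes, against 0.05 to 0.13 in the other pairs. Some of the 32 were called higher without library 1, a fit whose calls over all genes are not given here. Normoxia at 6 days was lower than at 6 hr in 17 of the 32 genes and higher in 5, where 25.9% and 30.9% of all genes were called, with medians of -0.40 and 0.04. The decreases were deepest in IMPDH1 (-1.13 ± 0.11, adjusted p = 8.42e-06, limma), UMPS (-1.11 ± 0.10, adjusted p = 4.84e-06), PRPS1 (-1.02 ± 0.09, adjusted p = 6.14e-06) and DHODH (-0.95 ± 0.12, adjusted p = 8.05e-05). These 4 did not pass in hypoxia against normoxia at 6 days, where they differed by -0.03, -0.12, -0.20 and 0.14. Both comparisons use the normoxic libraries of 6 days, so their values are given side by side and no relation between them is drawn. Some of the 10 hypoxia-response genes were also called higher in normoxia at 6 days than at 6 hr. These were PDK1 (1.19), PFKFB4 (0.99), VEGFA (0.67), KDM3A (0.61) and BNIP3 (0.57), while CA9, SLC2A1, ADM, ANKRD37 and EGLN1 were not called. The cause was not tested.

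PFAS, CAD, CTPS, DTYMK, MTHFD1 and UCK2 were lower both in normoxia at 6 days against 6 hr and in hypoxia against normoxia at 6 days. For CTPS the values were -0.68 ± 0.08 and -0.84 ± 0.08, and for CAD -0.87 ± 0.10 and -0.49 ± 0.10. IMPDH2, CTPS2, MTHFD1L and NME4 were higher with time in normoxia, by 0.32, 0.50, 0.27 and 0.52, and lower in hypoxia at 6 days. ADA, the fifth gene higher with time, rose by 0.84 ± 0.12 (adjusted p = 0.000106, limma), from 3.79 and 3.70 RPKM at 6 hr to 6.57 and 7.69 at 6 days. PPAT, PAICS, HPRT1 and CMPK1 were lower with time in normoxia, by -0.83, -0.61, -0.38 and -0.43, and higher in hypoxia at 6 days. Of these, IMPDH2 and HPRT1 missed the threshold over time without library 2 (adjusted p = 0.297 and 0.121) or 10 (0.24 and 0.123), CMPK1 without library 10 (0.0574), MTHFD1L without library 1, 9 or 10 (0.0557 to 0.0786), and IMPDH2 also without library 9 (0.0625).

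Seen over all 12 libraries, the 2 hypoxic libraries of 6 days lay below the other 10 in 18 of the 32 genes (56.2%), where this held for 18.1% of all genes tested. They lay above the other 10 in 1 gene (3.12%), GUK1, where this held for 23.2% of all genes.

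For 5 pairs of enzymes that share a step or mirror each other in cytosol and mitochondria, the ratio within each library was compared, which does not depend on how libraries are scaled apart from the pseudocount. MTHFD1 over MTHFD1L, cytosolic over mitochondrial, was lower in hypoxia in every library at each time. Its log2 ratio was 1.01 and 1.01 in normoxia and 0.90 and 0.82 in hypoxia at 6 hr, 0.78 and 0.78 against 0.55 and 0.55 at 48 hr, and 0.28 and 0.37 against -0.18 and -0.22 at 6 days. The mean difference over times was -0.30, with p = 0.00926 in an exact permutation test within times, two-sided, the smallest p its arrangements can give, and p = 0.0463 adjusted over the 5 pairs. IMPDH2 over IMPDH1 had a mean difference of the same size, -0.30, and an adjusted p of 0.116 in the exact permutation test. Its log2 ratio at 6 days was 2.34 and 2.55 in normoxia and 1.85 and 1.76 in hypoxia, and at 48 hr the groups overlapped. The other three pairs did not pass in the exact permutation test: CTPS over CTPS2 differed by -0.10 (adjusted p = 0.463), PRPS2 over PRPS1 by -0.09 (adjusted p = 0.432) and SHMT2 over SHMT1 by 0.08 (adjusted p = 0.463). CTPS over CTPS2 was at 0.78 to 1.25 in the 8 libraries of the earlier times and at -0.12, -0.21, -0.66 and -0.48 in the 4 of 6 days.

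**Figure D5:**
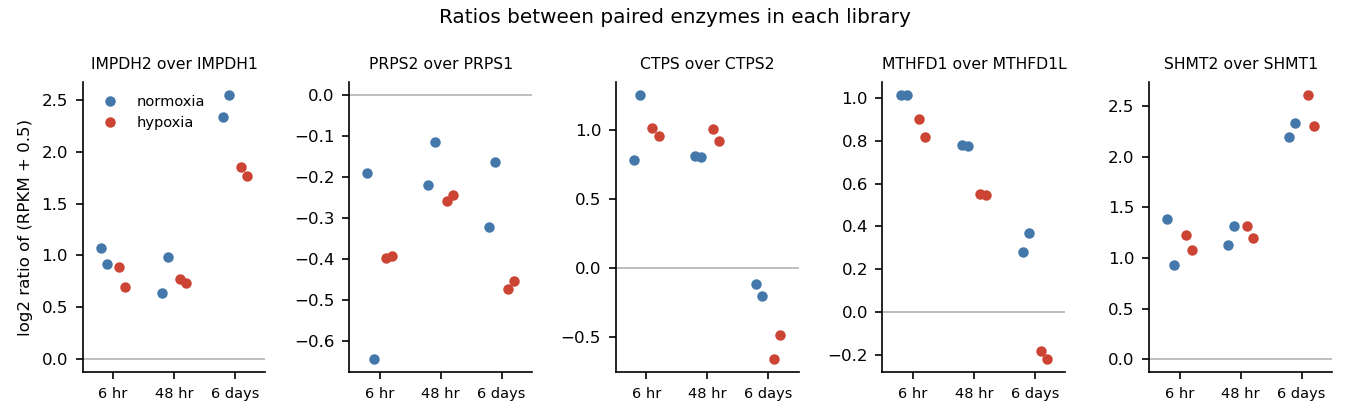
Log2 ratio of (RPKM + 0.5) between paired enzymes (y axis, scaled per panel) in each library at 6 hr, 48 hr and 6 days, blue for normoxia and red for hypoxia. MTHFD1 over MTHFD1L is lower in hypoxia at each time, and IMPDH2 over IMPDH1 and CTPS over CTPS2 have moved in opposite directions by 6 days.

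The neighbouring genes of these pathways, 98 by a list written from general knowledge, of which 82 were tested, were also mostly lower where called at 6 days. There 33 were lower (40.2%) and 7 higher (8.54%) in hypoxia, beside 18.3% and 23.9% of all genes, with a median of -0.24. By class, 6 of 7 genes of the methionine cycle, 6 of 11 of ribonucleotide reductase and deoxynucleotide supply, 4 of 8 of glutamine and aspartate supply and 6 of 20 other folate genes were lower. The largest decreases were those of RRM2, the small subunit of ribonucleotide reductase (-0.98 ± 0.12, adjusted p = 0.000108, limma), NUDT1, which clears oxidised purine nucleotides (-0.94), CBS, which takes homocysteine to cystathionine (-0.81), SLC25A12, a mitochondrial aspartate carrier (-0.81), and the kinase NME3 (-0.80). RRM2 was at 79.8 to 106 RPKM in the 8 libraries of the earlier times, at 37.9 and 34.2 in normoxia and at 17.5 and 18.6 in hypoxia at 6 days.

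The largest increases among these neighbours at 6 days were AMPD3, an AMP deaminase (1.86 ± 0.12, adjusted p = 1.11e-06, limma), UPRT, named for uracil salvage (1.38 ± 0.14, adjusted p = 2.44e-05), the mitochondrial folate enzyme MTHFD2L (0.78), PGM2, which acts on phosphopentoses (0.71), and MTR, methionine synthase (0.55). UPRT was called at every time. It was at 1.11 and 1.09 RPKM in normoxia and 3.78 and 3.30 in hypoxia at 6 hr, 1.13 and 1.03 against 5.21 and 4.15 at 48 hr, and 1.99 and 1.79 against 6.51 and 4.96 at 6 days, with no overlap. The only other neighbour called at 6 hr was the nucleotidase NT5C3, lower by -0.44 ± 0.10 (adjusted p = 0.0285, limma). At 48 hr 6 were higher (7.32%, against 9.24% of all genes) and 5 lower (6.1%, against 2.89%). The higher ones were led by UPRT (1.70), AMPD3 (0.79), the thymidine kinase TK1 (0.50), PGLS of the pentose phosphate route (0.42) and MTR (0.40). The 5 that were lower were DUT, which removes dUTP (-0.31), MAT2A, which makes S-adenosylmethionine (-0.35), SAMHD1, which breaks down deoxynucleotides (-0.47), the nucleotidase NT5C2 (-0.49) and SLC25A12 (-0.60).

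With time in normoxia the neighbours split, with 26 of 82 higher (31.7%) and 29 lower (35.4%) at 6 days against 6 hr, beside 30.9% and 25.9% of all genes, so the share that was higher was near that of all genes. All 3 serine synthesis genes were higher, led by PHGDH, its first enzyme, which went from 8.46 and 9.73 RPKM to 54.9 and 52.4 (2.50 ± 0.09, adjusted p = 1.87e-08, limma). ALDH1L2, a mitochondrial folate enzyme, rose by 2.72, AMT of glycine cleavage by 1.93, GOT1, the cytosolic aspartate transaminase, by 1.65, and the mitochondrial thymidine kinase TK2 by 1.38. The folate carrier SLC19A1 changed by -1.66, MAT2A by -1.64, DCTPP1, a deoxycytidine nucleotide hydrolase, by -1.57, RRM2 by -1.37 and the nucleoside transporter SLC29A1 by -1.29.

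Other growth-related genes moved beside the 32, and their part in the result was not tested. Of 37 DNA replication genes 28 were lower in hypoxia at 6 days and none higher (median -0.44), and 28 were lower and 1 higher with time in normoxia (median -0.57). Of 40 ribosome biogenesis genes 19 were lower and 2 higher in hypoxia at 6 days, and 36 were lower and none higher with time in normoxia. Among all genes tested, 18.3% were lower and 23.9% higher in hypoxia at 6 days, and 25.9% and 30.9% with time in normoxia. E2F1, a driver of S-phase genes, was lower in hypoxia at 6 days (-0.38, adjusted p = 0.0137, limma). It was also lower with time in normoxia (-0.68, adjusted p = 0.000215, limma). MYC was at 18.3 and 20.4 RPKM in normoxia and 17.2 and 17.5 in hypoxia at 6 days and did not pass (-0.15, adjusted p = 0.254), and was lower with time in normoxia (-0.47, adjusted p = 0.00198). HIF1A, the oxygen-regulated factor controlled mainly through its protein, did not pass at any time.

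Some markers of other cell types also differed with oxygen, and their part in the results was not tested. Summed over 8 fibroblast markers, the level was 29.1 to 31.0 RPKM in normoxia and 41.7 to 45.0 in hypoxia at 48 hr, and 34.1 to 35.5 against 44.3 to 48.0 at 6 days. The matrix genes DCN (0.32 ± 0.10, adjusted p = 0.0201, limma) and LUM (0.86 ± 0.15, adjusted p = 0.000834) were called higher in hypoxia at 6 days, as at 48 hr, while PDGFRB and FAP were below 0.25 RPKM in every library. Of the fibroblast markers 4 were tested, and none of 7 leukocyte or 5 endothelial markers reached the filter. Their sums were at most 1.04 and 0.125 RPKM at 6 days. The 5 erythroid markers summed to 0.433 and 0.541 RPKM in normoxia and 1.59 and 2.63 in hypoxia at 6 days. No marker of the line was called at 6 days.

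Scaling of the libraries shifted the balance of calls over all genes. At 6 days 56.6% of all calls were higher as deposited, 45.3% with quantile normalization and 47.9% with trimmed-mean centring of the libraries, and 76.2%, 57.9% and 55.8% at 48 hr. At 6 hr the shares were 94.4%, 76.1% and 76.0%, and across times 68.3%, 43.7% and 46.4%. For the 32 genes at 6 days, 5 were higher under both scalings and 21 and 19 were lower. Lower calls over all genes tested also rose at 6 days, from 2187 to 3276 and 2821 in the same order. Higher calls went from 2852 to 2708 and 2598. At 6 hr UMPS was called lower under both, and NME1 higher with quantile normalization only. Without library 1, NME1 and GUK1 were called higher at that time. Of the 22 calls at 6 days, 12 held under every alternative, which included leaving out each library. These were GUK1 and HPRT1, higher, and PFAS, GART, ADSL, IMPDH2, CAD, CTPS, DTYMK, MTHFD1, SHMT1 and APRT, lower.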

How the data were processed

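RNA of 12 libraries of A2780 cells was measured, 2 in each of 6 groups. Each library has a deposited table of RPKM by gene symbol. The submitters' processing notes name Partek 6.6 and the hg19 build. Aligner, annotation, read filters and strand setting were not given in any source used here. The RPKM values were used as deposited. The series holds 24 samples, of which the 12 precursor miRNA tables served only to infer read totals from RPKM steps (710 of 939 precursors with a length, 95.38 to 99.33% of values up to 20 reads within 0.05 of whole reads). Gene RPKM cannot be turned back into counts, and no test of counts was made.

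The 11933 genes that reached 1 RPKM in 2 or more of the 12 libraries were fitted as log2(RPKM + 0.5) with limma 3.58.1 (R 4.3.3), using a mean for each of the 6 groups, eBayes moderation with an intensity trend, two-sided, Benjamini-Hochberg adjustment over all genes in each of 8 comparisons and a threshold of 0.05. Residual degrees of freedom were 6, with 5.08 from the prior. One comparison used oxygen and time as additive terms. Intervals are 95% intervals of the fit. Ratios of 5 pairs were tested by exact permutation within times. Alternatives were pseudocounts of 0.1 and 1, no filter, quantile normalization, trimmed-mean centring (10% of each end), only the groups compared, no trend, and leaving out each library. Promoter windows came from RefSeq, GRCh38.p14, another build than hg19, and were matched by symbol.

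All 32 genes are named. Of the neighbouring genes the 5 highest and 5 lowest called fold changes per comparison are named. All hypoxia-response genes used to check the oxygen labels and 3 regulators are also named. The genes and lists were chosen with earlier results of these data known. On simulated data with 200 of 11933 genes changed, log2 changes of 0.5 and 1 were found in 37% and 94% at 6 hr, 39% and 97% at 48 hr and 40% and 97% at 6 days, with 5.07, 6.21 and 4.2% of calls false. Figures used matplotlib 3.10.9 in Python 3.11.15.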

Additional observations from a re-analysis of the deposited data

Results flagged for a closer look

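The response to hypoxia differed between 48 hr and 6 days in 6 of the 32 genes, by a contrast of both responses in limma. It was lower at 6 days for PFAS (-1.02), CTPS (-0.75), APRT (-0.72), SHMT1 (-0.70) and MTHFD1 (-0.55), all on the log2 scale, and higher for CMPK1 (0.74). Among all genes tested, 5.31% had a lower and 5.38% a higher response at 6 days than at 48 hr. Only PFAS and CTPS kept their calls under every alternative tried. APRT and CMPK1 had opposite signs at the 2 times, with 0.16 and -0.56 for APRT and -0.29 and 0.45 for CMPK1, of which only the 6-day values passed the test.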

How the results depend on the processing

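No paired analysis was possible because the labels number the libraries 1 to 12 with no number shared between groups. With 2 libraries per group, most log2 changes of 0.5 were missed in the simulated data. The simulation changed far fewer genes than were called at 6 days (2852 higher and 2187 lower). The adjustment depends on how many genes change, so the simulated shares need not hold at that time. At 6 days UCK2 (-0.27) and ATIC (-0.28) were called, while PRPS2 (-0.42) and NME1 (-0.39) were not. No called fold change of the 32 genes changed sign under any alternative. The counts of called genes that moved by more than 1.5 times were these. Quantile normalization gave 1 higher (348 of all genes) and 1 lower (109) at 6 hr, and 5 lower at 48 hr (682). It gave 8 higher with time in normoxia at 6 days (3420). With it, 10 had a lower response at 6 days than at 48 hr (1283), and 13 were lower across times (1773). As deposited, these counts over all genes were 404, 24, 345, 3686, 634 and 851. Trimmed-mean centring gave 1 lower at 6 hr (118 of all genes) and 7 lower at 48 hr (866). It gave 8 with a lower response at 6 days than at 48 hr (897) and 14 lower across times (1761). Fitting only the libraries of the groups compared gave 2 higher (1348 of all genes) and 6 lower (629) at 48 hr. It gave 3 higher with time in normoxia (3021), and 4 higher (1198) and 10 lower (1186) responses at 6 days than at 48 hr. With all 12 libraries fitted, 1103 of all genes were higher at 48 hr and 642 had a higher response at 6 days than at 48 hr. With no filter, and with no intensity trend, 1 was lower at 48 hr (235 and 316 of all genes). Leaving out 1 library at a time gave 0 to 2 higher at 6 hr, 0 to 1 higher and 0 to 0 lower at 48 hr, 2 to 4 higher and 10 to 14 lower at 6 days, 0 to 7 higher in normoxia at 48 hr against 6 hr, 3 to 6 higher in normoxia at 6 days, 0 to 1 higher and 2 to 4 lower responses at 6 days than at 48 hr, and 1 to 14 lower across times. The mean log2 ratio difference ran from -0.3586 to -0.2422 for IMPDH2 over IMPDH1, passing the exact permutation test without library 5 (-0.3586, adjusted p = 0.02315), and from -0.1707 to -0.019 for PRPS2 over PRPS1, passing without library 2 (-0.1707, adjusted p = 0.02315). In the limma fits without a library, the lone library of a group is assumed to vary like the other groups. The permutation test of a ratio pools no spread, and has fewer arrangements when a library is left out. The cause of the changes was not tested.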
